A study of Mus musculus with 12 samples.

Results

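Carboxylesterases and arylacetamide deacetylase are serine hydrolases that hepatocytes make in large amounts. The 10 genes described here, out of 10607 genes in the deposited table of input and footprint values, were taken by name: Aadac, Ces1c, Ces1d, Ces1e, Ces1f, Ces1g, Ces2a, Ces2c, Ces2e and Ces3a. The members were chosen by a measured value, the ribosome footprints of Ces2c and Aadac, already known to be lower in the knockout livers, so the footprint values of the members, and the ratios computed from them, are given as a description and not as a test. All 10 were listed in the table, and all 10 passed the filters on low values in the input and in the footprint comparison.

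The ribosome profiling data came from the livers of 3 WT and 3 Mettl5 KO mice. The study describes the WT mice as littermate controls, and mice of the same number were taken here as littermates and called a litter. METTL5 is the enzyme that methylates an adenosine of 18S rRNA at the N6 position. The KO mice carried a deletion of exon 2 of Mettl5 in the whole body, made by crossing a floxed line with mice in which the CMV promoter drives Cre; the line came from stem cells of a C57BL/6 and 129S6 hybrid and was backcrossed to B6, and neither genotype received a treatment. Each frozen liver gave an input library and an RPF library, both made from RNA that the authors had depleted of rRNA. The input library held RNA fragments. The RPF library held footprints, the stretches of mRNA that a ribosome shields from nuclease (ribosome-protected fragments). The study used mice of both sexes and of a range of ages. The sources used here do not say which age these 6 had.

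A carboxylesterase cleaves ester, amide or thioester bonds with a catalytic serine, which takes over the acyl part of the substrate and then passes it to water. In liver these enzymes break down ester drugs and toxicants, and several of them also hydrolyse stored triglyceride and supply fatty acids for lipoprotein particles. Most sit in the lumen of the endoplasmic reticulum, where a short signal at the end of the protein is recognised by receptors that return it from the Golgi. Aadac is a membrane protein of the same compartment, belongs to another branch of the same fold, and removes acetyl groups from arylacetamide drugs.

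The codons around the catalytic serine are shown because they are what the 10 genes have in common. In its middle part each coding sequence held 1 stretch, with the serine between codons 188 and 232, that reads glycine, any residue, serine, any residue, glycine. In the sequences below, from GENCODE M21 transcripts on mm10, the serine codon is in capitals.
Aadac: ggagacAGTgctggt
Ces1c: ggagagTCAtcaggg
Ces1d: ggagagTCAgcagga
Ces1e: ggagagTCAgcagga
Ces1f: ggagagTCAgcagga
Ces1g: ggcgagTCAgcagga
Ces2a: ggagtcTCAgcagga
Ces2c: ggcgagTCTgcaggt
Ces2e: ggagagTCAgcaggt
Ces3a: ggtaacTCTgctgga

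The ends of the coding sequences are shown because they set the members apart. The last 4 codons before the stop are in capitals. In 7 members they read histidine, any residue, glutamate, leucine, which is the retention signal of luminal carboxylesterases, and in Aadac, Ces1c and Ces3a they do not. Ces1c is the carboxylesterase that liver secretes into blood plasma.
Aadac: cttATCAAAAATCTGtaa
Ces1c: cacACAGAACACAAAtga
Ces1d: gaaCATGTTGAGCTCtga
Ces1e: gaaCACACTGAGCTGtga
Ces1f: tacCACAATGAGCTGtga
Ces1g: gaaCATGTTGAACTGtga
Ces2a: aagCATGCAGAGCTGtag
Ces2c: aagCACAGGGAGCTTtag
Ces2e: aggCACAAAGAGTTGtag
Ces3a: gttCCAGAGGAGCTCtga

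The 9 Ces genes lie on chromosome 8 of mm10 in a pair of clusters. Ces1c (chr8:93099015-93131283), Ces1d (chr8:93166068-93197838), Ces1e (chr8:93201218-93229619), Ces1f (chr8:93256236-93279747) and Ces1g (chr8:93302369-93337308) follow each other on the minus strand. Ces2a (chr8:104734003-104741634), Ces2c (chr8:104847068-104854483), Ces2e (chr8:104926260-104934672) and Ces3a (chr8:105048601-105058413) lie on the plus strand. Aadac is alone on chromosome 3 (chr3:60025717-60040160, plus strand). It has 5 exons, whereas the Ces genes have 12 to 14.

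The Ces genes are close copies of each other, and this limits how their reads can be counted. Coding sequences of Ces2c and Ces2e were 84.3% identical, those of Ces2a and Ces2e 83.7%, and those of Ces1d and Ces1g 82.4%, whereas Aadac was 50.0% to 51.4% identical to the Ces genes. A stretch of 28 bases, about the length of a footprint, was looked up at every position of each coding sequence in the transcripts of all other genes. Of these stretches, 71.5% of those in Ces2c were also found in another gene, and 61.0% were found in Ces2d-ps, an annotated pseudogene of the cluster. The share was 47.3% in Ces2a, 46.5% in Ces3a and 33.8% in Ces1c, and lay between 8.02% and 17.1% in the other Ces genes. No stretch of Aadac was shared. Reads that map to several places were discarded by the authors, so counts of Ces2c, Ces2a, Ces3a and Ces1c stand for part of their sequence and remain uncertain.

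The longest run of the Ces2c coding sequence that holds no shared stretch is its first 92 bases, from the start codon onward. It is shown because no stretch within it had an identical copy in the transcripts of another gene. The authors' mapping of footprints allowed mismatches, and near-identical copies were not looked up here. Whether footprints in this run come from Ces2c alone was therefore not tested.
Ces2c: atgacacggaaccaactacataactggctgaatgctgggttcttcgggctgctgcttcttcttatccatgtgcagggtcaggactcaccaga

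Input libraries, made after rRNA depletion, held 8326325 to 11825643 read pairs in genes, of which 45.8% to 63.8% fell on an 18S rRNA gene. In the table of 10607 genes the input libraries had 2398804 to 5121304 reads and the RPF libraries 4623826 to 9184242. KO mouse 1 had the input library with the lowest 18S share, 45.8%, and the most table reads, 5121304. The other input libraries had an 18S share of 59.1% to 63.8% and at most 3078540 table reads. Mettl5 itself had 58.4, 47.8 and 53.1 normalized RPF reads in WT and 8.34, 5.53 and 9.56 in KO, and 15.7 to 38.5 input reads in WT and 7.995 to 9.30 in KO; reads of exons that were not deleted still count. Markers of hepatocytes were abundant in each library, and the 5 pancreatic and 4 kidney markers were at or near 0 in the input: Prss2, Ctrb1, Amy2a5, Umod, Slc34a1 and Kap had no read, and Cela2a, Pnlip and Slc12a3 had at most 3 in a library. All mice had Ddx3y reads and none had Xist reads, as males do.

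In WT liver the members spanned a wide range of mRNA levels, with Ces1c highest and Ces2c lowest. Levels are given as input reads per kilobase of exon, scaled to 1000000 table reads. The whole exon length was used, without correction for reads discarded because they map to several places. Ces1c stood at 699 ± 56.3 (SD, n = 3), which ranked 47 among the genes of the table, and Ces3a at 314 ± 37.6. Ces1d, the triacylglycerol hydrolase of the endoplasmic reticulum, had 192 ± 25.5 and Aadac 164 ± 23.4, and the mice of these neighbours overlapped. Ces1f followed with 112 ± 13.7 and Ces2a with 73.1 ± 11.7. The levels of Ces1e at 48.0 ± 8.52, Ces2e at 45.3 ± 16.2 and Ces1g at 34.04 ± 17.2 overlapped between neighbours. Ces2c had 11.02 ± 3.60 and lay below the range of its nearest neighbour, Ces1g.

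Footprint levels, as RPF reads per kilobase of coding sequence on the same scale, kept Ces1c on top and Ces2c at the bottom. Ces1c had 2312 ± 20.6 (SD, n = 3) and Ces2c 46.2 ± 6.45. The whole coding length was used, though footprints that map to several places were discarded. Stretches shared with another gene made up 71.5% of Ces2c, but 10.1% of Ces1g and 12.8% of Ces1e. The place of Ces2c with only its unshared stretches counted was not tested. Aadac, at 863 ± 122.8, moved ahead of Ces1d, at 529 ± 45.4, and its mice overlapped with those of Ces3a at 1057 ± 171. Ces1f had 479 ± 1.42, Ces2a 229 ± 21.2, Ces2e 160 ± 23.3, Ces1g 108 ± 42.4 and Ces1e 88.5 ± 7.63.

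**Figure D1:**
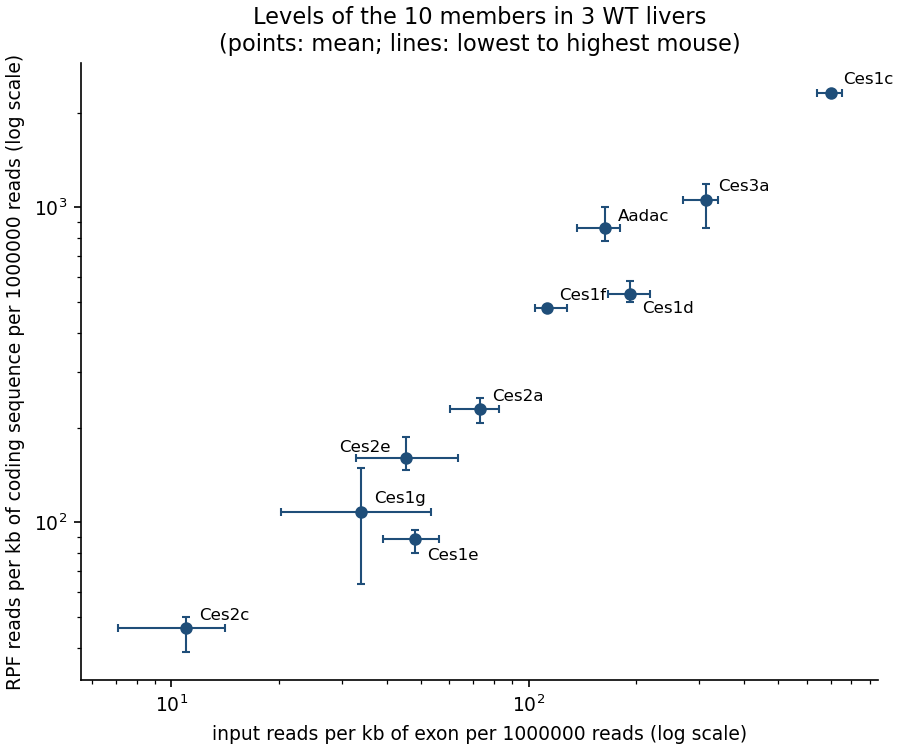
Input level (horizontal axis, reads per kilobase of exon per 1000000 reads, log scale) against RPF level (vertical axis, reads per kilobase of coding sequence per 1000000 reads, log scale) of the 10 members in WT liver; points are means of 3 mice and lines run from the lowest to the highest mouse. Ces1c lies at the upper right with 699 and 2312, Ces2c at the lower left with 11.02 and 46.2, and Aadac has a higher RPF level than Ces1d at a lower mean input level. Lengths are whole, including stretches shared with other genes.

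The footprint level divided by the input level, both per length, differed among the members. It was 5.30 ± 0.593 (SD, n = 3) for Aadac, 4.40 ± 0.987 for Ces2c and 4.31 ± 0.478 for Ces1f. It was lowest for Ces1e, or egasyn, the esterase that holds beta-glucuronidase in the endoplasmic reticulum, at 1.86 ± 0.178. All other members lay between 2.78 and 3.71. These ratios also rest on whole lengths, so the places of Ces2c, Ces2a, Ces3a and Ces1c are limited by their shared stretches. The place of Ces1f rests on the length used: with exon length for both levels its ratio was 2.21 ± 0.245, at place 7 from the highest, while Aadac at 4.21, Ces2c at 3.22 and Ces1e at 1.44 kept theirs. The 10 genes together took 0.402% ± 0.0438 of the input reads of the table and 0.945% ± 0.0325 of its RPF reads in WT, and 0.390% ± 0.0869 and 0.864% ± 0.0735 in KO.

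Ces2c, an esterase of the second class that hydrolyses drug esters and glycerides, had fewer footprints in each KO liver. Normalized RPF reads, that is reads divided by the authors' library factor, were 342, 418 and 397 in WT mice 1 to 3 and 183, 179 and 190 in their KO littermates. The groups did not overlap, and the KO mice differed from each other by far less than they did from any WT mouse. The mean fell from 385 ± 39.5 to 184 ± 5.73 (SD, n = 3), a log2 difference of -1.06 on the log2(value + 1) scale. These values rest on 392 to 769 reads in WT and 199 to 291 in KO.

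The mRNA of Ces2c was also lower in each KO liver, though with few reads. Normalized input reads were 71.5, 108 and 128.5 in WT and 50.0, 69.1 and 64.0 in KO. The highest KO mouse lay just under the lowest WT mouse, so that the groups did not overlap on this scale. They overlapped when scaled to all table reads instead, with KO mouse 2 at 7.35 reads per kilobase of exon per 1000000 and WT mouse 1 at 7.07. The log2 change was -0.76 with a standard error of 0.24, and its adjusted p was 0.999 by edgeR's quasi-likelihood test, so it did not pass. Unadjusted p was 0.00731 in the same edgeR fit, where 3.46% of all genes tested were under 0.05. Only 39 to 98 read pairs in WT and 40 to 76 in KO stood behind these values.

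The ratio of RPF to input, here called translation efficiency (TE), overlapped between the genotypes for Ces2c. It was 4.77, 3.87 and 3.09 in WT and 3.66, 2.59 and 2.97 in KO. KO was lower than its WT littermate in each of 3 litters, and the log2 difference was -0.34 with a standard error of 0.28.

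Aadac showed lower footprints in KO on a larger count. Normalized RPF reads were 6285, 4776 and 4410 in WT and 3092, 2580 and 2111 in KO. The highest KO mouse was below the lowest WT mouse, and within each litter the log2 difference was -1.02, -0.89 and -1.06. The mean went from 5157 ± 994 to 2594 ± 491 (SD, n = 3), a ratio of 0.503 and a log2 difference of -0.99.

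Input reads of Aadac overlapped between the genotypes. They were 1189, 1038 and 814 in WT and 822, 759 and 865 in KO. KO was lower in 2 litters and slightly higher in litter 3. The log2 change was -0.29 with a standard error of 0.15 and did not pass (adjusted p 0.999, edgeR quasi-likelihood).

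The TE of Aadac separated the genotypes. It was 5.29, 4.603 and 5.42 in WT and 3.76, 3.40 and 2.44 in KO, so that KO mice were below all WT mice. The mean moved from 5.10 ± 0.437 to 3.20 ± 0.683 (SD, n = 3), a log2 difference of -0.69 with a standard error of 0.24. Among the members Aadac was alone in having TE below all WT mice in all KO mice, an order that 7.34% of all genes tested showed. Ces1b and Ces3b, family genes outside the members, showed this order too.

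**Figure D2:**
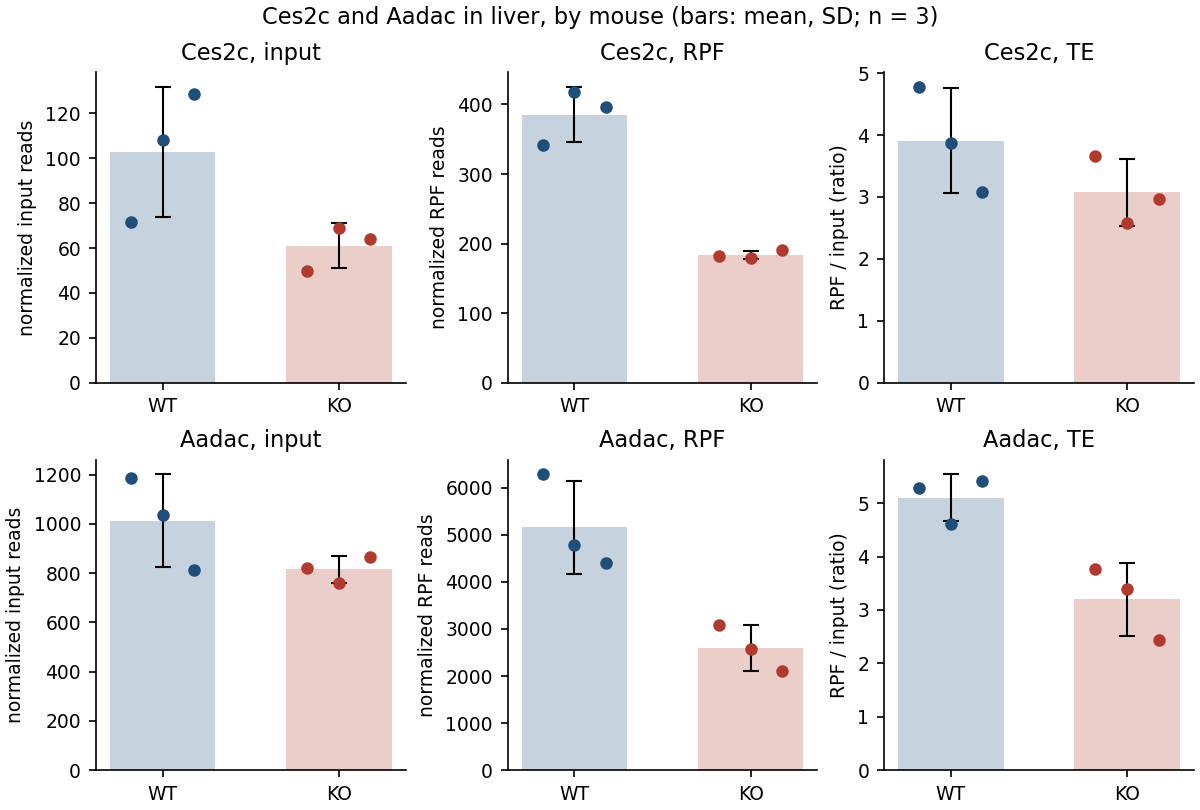
Normalized input reads, normalized RPF reads and their ratio (vertical axes, from 0) for Ces2c (upper row) and Aadac (lower row) in WT and KO liver; points are mice 1 to 3 from left to right, bars are means and error bars SD, n = 3. RPF reads of the KO mice lie below those of all WT mice for both genes, at 179 to 190 against 342 to 418 for Ces2c and 2111 to 3092 against 4410 to 6285 for Aadac, whereas input reads of Aadac and the ratio of Ces2c overlap.

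In RPF, 2 of the 10 members, Ces2c and Aadac, were at an adjusted p under 0.05 in the limma fit over all genes. In that fit 0.489% of 8994 genes were called, and 0.322% were called lower in KO; the choice of the members fixed these 2 calls, so nothing is read from the count. With litter as a block, which pairs mice of the same number, the same 2 members were called beside 236 genes in all, 2.62% of those tested. Without WT mouse 2, KO mouse 2 or KO mouse 3 neither was called, and without WT mouse 3 Aadac alone was. Ces2c ranked 42 and Aadac 50 from the lowest log2 RPF difference of all genes. The next member was Ces1g at -0.54, rank 433, and the last was Ces2a at -0.03, rank 4548.

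The other 8 members all had a log2 RPF difference below 0, between -0.54 and -0.03 with a median of -0.17, but their genotypes overlapped and none was called. With each library centred on its median, 10 members stayed below 0. Scaled to all table reads, mean RPF per kilobase was not lower in KO for Ces2a (229 in WT, 246 in KO), Ces1f (479, 483) and Ces3a (1057, 1059). On that scale it was lower for Ces1c, Ces1d, Ces1e, Ces1g and Ces2e. Leaving out KO mouse 3 turned Ces1f to 0.022, and leaving out KO mouse 1 turned Ces2a to 0.0082. The median over all genes was -0.03, and 54.0% of all genes were lower in KO. KO mice lay below all WT mice in RPF for 2 of 10 members, Ces2c and Aadac, and for 12.9% of all genes.

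Among enzymes tied to triglyceride hydrolysis, Ces1g varied most. Its normalized RPF reads were 567, 1249 and 905 in WT and 622, 519 and 644 in KO, and the lowest WT mouse sat among the KO mice. The log2 difference of -0.54 came with a standard error of 0.40, and was -0.27 without WT mouse 2 and -0.84 without WT mouse 1. Ces1d had 4487, 4900 and 4025 RPF reads in WT and 5315, 2889 and 3351 in KO, which put a KO mouse both above and below all WT mice. Its log2 difference was -0.26, with a standard error of 0.23, and was -0.08 without KO mouse 2 and -0.52 without KO mouse 1. Ces1f, a related triacylglycerol hydrolase, had 3817 to 4221 in the WT mice, within the 2850 to 4993 seen in KO.

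The members with the highest footprint counts overlapped between the genotypes. Ces1c, the plasma esterase, had 20130, 18934 and 18373 normalized RPF reads in WT and 19362, 16100 and 13901 in KO, a log2 difference of -0.23 with a standard error of 0.14. Ces3a, a liver esterase of another class, had 7751 to 9630 in WT and 7162 to 9576 in KO. Its log2 difference was -0.13, and it was the member with a TE difference above 0, at 0.11.

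The nearest relatives of Ces2c showed smaller differences than Ces2c. Ces2a had 1811, 1920 and 1972 RPF reads in WT and 1773, 2010 and 1817 in KO, with a log2 difference of -0.03 and a standard error of 0.12. Ces2e had 1293, 1559 and 1162 in WT and 1456, 1100 and 1000 in KO, with a log2 difference of -0.18. Ces1e is a more distant copy, 61.9% identical to Ces2c in coding sequence. It had 707 to 795 RPF reads in the WT mice, within the 587 to 826 seen in KO. No test between members was made, since Ces2c was picked for its fall.

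Litters differed in how these 8 genes moved. In litter 1, RPF of 6 of the 8 was higher in the KO mouse, with a median log2 difference of 0.15. In litter 2, 7 of the 8 were lower with a median of -0.40, and in litter 3 all 8 were lower with a median of -0.28. Ces2c and Aadac were lower in the KO mouse of each litter. The input showed a like split in litters 1 and 2, with 6 of the 8 higher in litter 1 and all 8 lower in litter 2. In litter 3 the input differed from RPF, with 5 of the 8 lower, 3 higher and a median of -0.016. The KO mouse of litter 1 gave the input library with the lowest 18S share, and its part in this split was not tested.

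**Figure D3:**
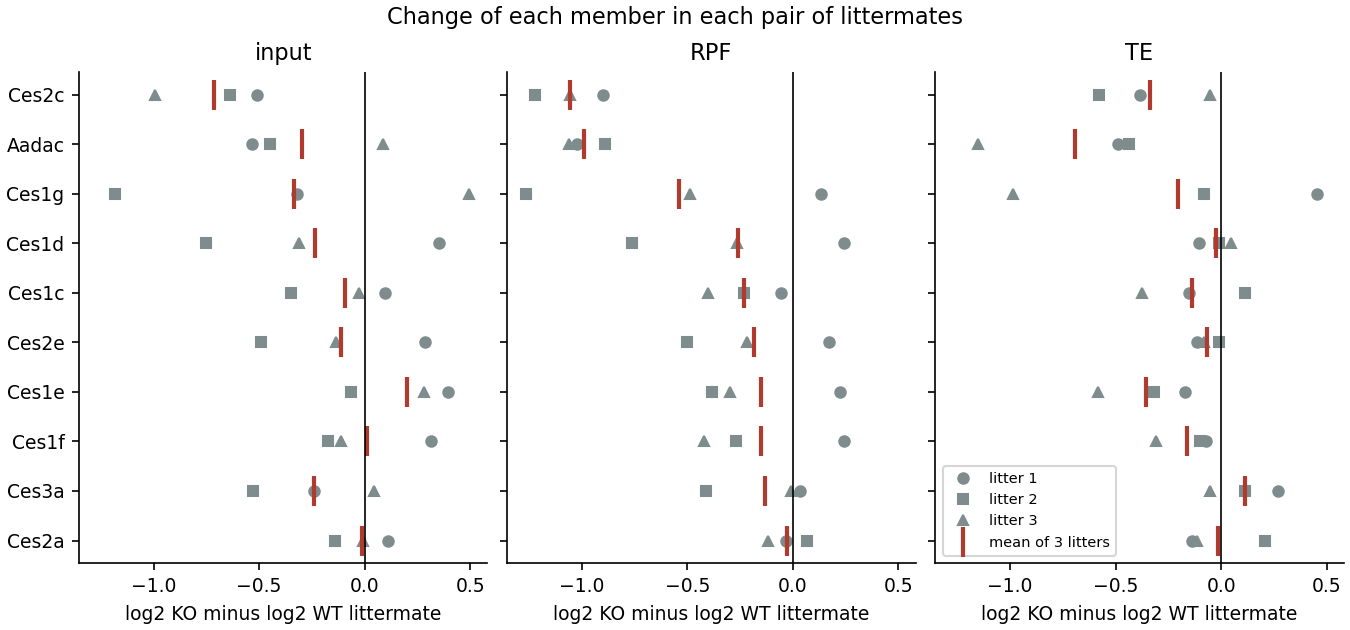
Log2 difference between each KO mouse and the WT mouse of its number (horizontal axis) for the 10 members in input, RPF and TE. Rows are ordered by RPF difference, grey symbols are the 3 pairs, taken as litters, and red bars are their means. RPF of Ces2c and Aadac lies between -1.22 and -0.89 in all litters, whereas litter 1 lies above 0 for 6 of the other 8 members.

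In the input, 0 of the 10 members were at an adjusted p under 0.05 (edgeR quasi-likelihood), as were 0 (0%) of the 10057 genes tested, and 1 member, Ces2c, was under an unadjusted p of 0.05. DESeq2 called 0 of the members too. The median log2 input change of the members was -0.14 and that of all genes -0.00026; 7 members were lower, and Ces1e, Ces1f and Ces2a had values of 0.22, 0.06 and 0.01. Without WT mouse 2 the median was 0.02, and without KO mouse 2 it was -0.03, with 5 members lower in each case; without KO mouse 3 it was -0.07. KO mice were below all WT mice in normalized input for 1 of 10 members, Ces2c, and for 5.6% of genes. Ces1e had the next smallest unadjusted p after Ces2c and Aadac, at 0.136, with normalized input reads of 376, 486 and 425 in WT and 494, 464 and 516 in KO.

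In TE, 0 of the 10 members and 0 (0%) of all genes were at an adjusted p under 0.05 by limma. At an unadjusted p under 0.05 were 1 member, Aadac, and 4.7% of all genes. The log2 difference was below 0 in 9 of 10 members, with a median of -0.15 beside -0.01 for all genes. With the GC trend removed, 7 members were below 0 and the median was -0.06. Without WT mouse 1, 6 were below 0, and without KO mouse 3, 7 were, with medians of -0.11 and -0.04; without WT mouse 3 the median was -0.10. Ces1e, at -0.35, came after Aadac; its TE was 1.88, 1.64 and 1.70 in WT and 1.67, 1.31 and 1.14 in KO, and a KO mouse lay within the WT range.

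RPF differences moved with base composition over all genes, and the members sit at different points of that scale. A slope was fitted to the log2 RPF of each library after the mean of all RPF libraries was taken off. Per 10 points of GC content of the coding sequence, this relative slope was -0.17, -0.14 and -0.08 in WT and -0.01, 0.12 and 0.28 in KO. Genes were split into 10 bins by GC. In the bin with the least GC, which holds Aadac with 43.3% GC, the median log2 RPF difference was -0.26 and the 5th percentile -0.70, beside -0.99 for Aadac. In the bin that holds Ces2c, Ces2e and Ces3a the median was -0.06 and the 5th percentile -0.49, beside -1.06 for Ces2c with 52.3% GC. With the GC trend removed from each library the log2 difference was -0.77 for Aadac and -1.04 for Ces2c. Ces2c alone was then called in the limma fit over all genes, and with the litter block in the same fit both were. The members were chosen by these RPF values, so the calls are a description and nothing is read from them.

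**Figure D4:**
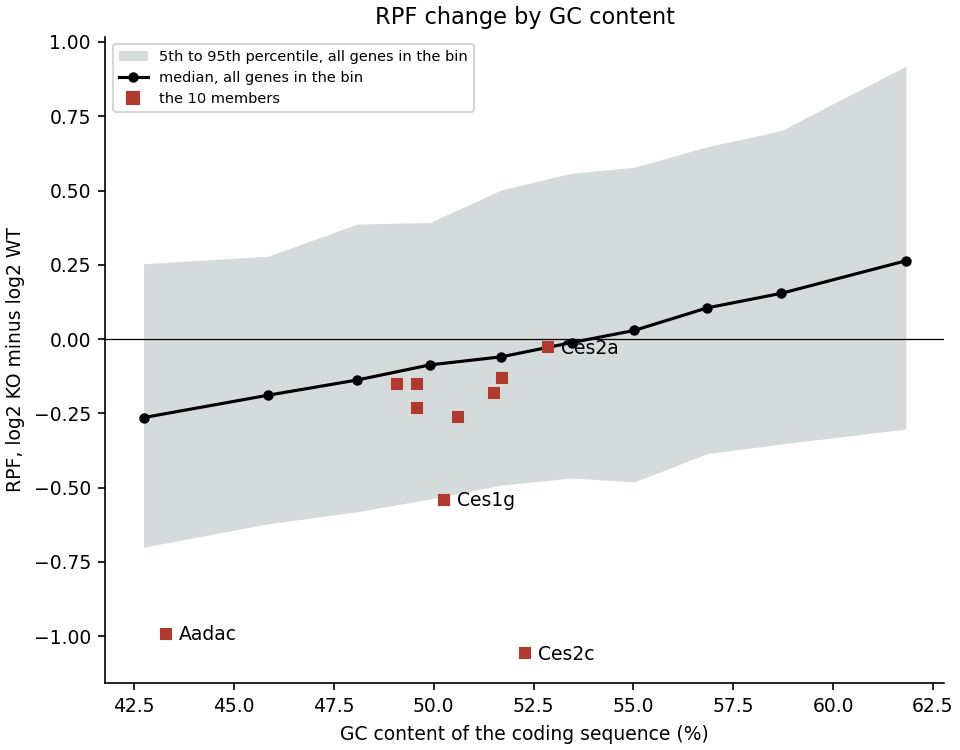
Log2 RPF difference, KO minus WT (vertical axis), against GC content of the coding sequence in percent (horizontal axis); the line joins medians of all genes in 10 bins of GC content, the band spans their 5th to 95th percentiles, and squares are the 10 members. Aadac, at 43.3% GC and -0.99, and Ces2c, at 52.3% GC and -1.06, lie below the band; Ces1g, at -0.54, lies at its lower edge.

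Markers of other cells and of sex-dependent expression were compared beside these results. The summed normalized RPF of 6 stellate cell and fibroblast markers was 1874 to 2058 in WT and 2688 to 2892 in KO, and their input sum was 279 to 317 CPM (counted without rRNA and Lars2) in WT and 325 to 435 CPM in KO, with none of the 6 at 0. The summed RPF of 6 genes that male livers express more was 13890 to 15910 in WT and 8609 to 11377 in KO, without overlap, whereas their input sum overlapped at 2112 to 2683 and 1774 to 2345 CPM. The RPF sum of 4 Y-linked genes was 1381 to 1434 in WT and 1023 to 1294 in KO, and their input sums overlapped. Sums of hepatocyte, Kupffer cell, endothelial, pericentral and periportal markers overlapped between genotypes in both assays. The part of these markers in the lower footprints of Ces2c and Aadac was not tested, and in whole liver fewer cells of a type and less RNA per cell cannot be told apart.

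Of 15 other genes of the carboxylesterase and Aadac families, 4 had enough reads to test, and 0 passed in input (edgeR), RPF or TE (limma). Ces3b, which shares 46.5% of the Ces3a stretches, had 1608, 1806 and 2023 normalized RPF reads in WT and 1280, 1239 and 1475 in KO. On this scale its genotypes did not overlap, an order that 12.9% of all genes showed. Scaled to all table reads they overlapped, with KO mouse 3 at 195 reads per kilobase of coding sequence and WT mouse 1 at 179. Its log2 RPF difference was -0.44 with a standard error of 0.16 and an adjusted p of 0.210 by limma, or 0.0499 with the litter block. Log2 RPF differences were -0.20 for Ces1b, -0.08 for Ces2g and -0.21 for Nceh1, a neutral cholesterol ester hydrolase. The genotypes overlapped in RPF for all of them. In TE, the KO mice lay below all WT mice for Ces3b, at 1.47 to 1.75 against 1.98 to 2.12. The same held for Ces1b, at 1.09 to 1.41 against 1.43 to 1.75, whereas TE of Ces2g and Nceh1 overlapped. Ces2d-ps had no input read in any library, and Ces2b at most 16.

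Genes around the members were described from 4 further lists, and none passed an adjusted p of 0.05 in input (edgeR), RPF or TE (limma). Of 13 other hydrolases of liver, 8 were lower in RPF, with a median log2 difference of -0.10. Soluble epoxide hydrolase Ephx2 was at -0.48 ± 0.16 (standard error; adjusted p 0.177, limma), Pon3 at -0.49 ± 0.17 and Esd at -0.36 ± 0.14. With the litter block Ephx2 passed, at an adjusted p of 0.0351 (limma).

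Of 14 tested genes of lipolysis and lipoprotein assembly, 9 were lower in RPF, with a median of -0.05. Apob, the protein scaffold of these particles, was at -0.39 ± 0.12 (standard error; adjusted p 0.145, limma). Abhd5, which activates adipose triglyceride lipase, was at -0.72 ± 0.25 (adjusted p 0.192, or 0.0320 with the litter block, limma). Pnpla2, which encodes that lipase, was at 0.42 ± 0.18.

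Of 8 tested genes of folding and retention in the endoplasmic reticulum, 7 were lower in RPF, with a median of -0.15. The chaperone Hspa5 was at -0.45 ± 0.13 (standard error; adjusted p 0.129, or 0.0479 with the litter block, limma), Canx at -0.19 ± 0.12 and the retrieval receptor Kdelr2 at -0.21 ± 0.16. Of 12 regulators of drug and lipid metabolism, 7 were lower in RPF, with a median of -0.02, and Ppara at 0.27 ± 0.14, Nfe2l2 at -0.25 ± 0.16 and Nr1h4 at -0.23 ± 0.15 had the smallest p.

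Likeness of pattern is given over 6 libraries, with no p, and the split between genotypes alone raises r. Over the RPF libraries, the genes most like Ces2c were Eif3d (Pearson r = 0.993), Dnajc25 (0.991) and Mup14 (0.985), and those most like Aadac were Ttc17 (0.997), Rnf14 (0.997) and Slc35b3 (0.996). Mup14 belongs to a family of near-identical copies, so its reads are uncertain. Ces2c and Aadac had an r of 0.849 with each other in RPF and 0.138 in input. Over the input libraries, Prdx1 (0.989), Itpkb (0.984) and Hypk (0.981) were most like Ces2c, and Sh3bgrl (0.980), Otud4 (0.978) and B230118H07Rik (0.970) most like Aadac.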

How the data were processed

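The deposited input counts are unnormalized read pairs. After trimming (BBDuk) the authors mapped them to mm10 using STAR 2.7.3a, and unique alignments were assigned to exons, by strand, with featureCounts (1.6.0 in the labels, 2.0.3 in the file header). RPF reads were stripped of rRNA and mapped by the authors with RiboToolkit to a single location without removal of duplicates. The deposited table holds a normalized signal per library, in which 100% of values were whole reads (within 0.01) divided by 1 factor per library, with no gene length. Its columns of the authors' log2 fold change of TE and their p-value and adjusted p-value were not used.

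Input was tested with edgeR 4.0.16 (TMM, filterByExpr, robust quasi-likelihood fit, R 4.3.3), RPF and TE with limma 3.58.1 on log2(value + 1), where both assays averaged 10 or more per gene, with genotype by assay as group means. Group means do not pair the input and RPF libraries of a liver. TE taken per mouse, which does, gave a standard error of 0.23 for Aadac and 0.24 for Ces2c. The whole reads were tested with edgeR as an alternative, which called 66 genes in RPF. Benjamini-Hochberg adjustment ran over all genes, and tests were two-sided. The sample titles number the mice, and a WT and a KO mouse of the same number were taken as littermates. Deviations of these pairs from their group means correlated at 0.08 to 0.13 in input and 0.14 to 0.24 in RPF. Litter as a block is an alternative. DESeq2 1.42.0 was another. Coding sequences came from GENCODE M21, which held 99.4% of the gene IDs.

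The members and lists were chosen with earlier results of these data known. Named were all members, the tested family genes, any listed gene past an adjusted p of 0.05, otherwise up to 3 per list with the smallest p in RPF, and the 3 genes of highest Pearson r.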

Additional observations from a re-analysis of the deposited data

How the results depend on the processing

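Ces2c and Aadac kept an RPF difference below 0 under all alternatives run, from -1.14 to -0.997 for Ces2c and from -1.13 to -0.77 for Aadac. Their calls in RPF remain a description, since the members were chosen by it. The number of members called in RPF (2) fell to 1 with the GC trend removed, and to between 0 and 2 with a mouse left out: to 0 without WT mouse 2, KO mouse 2 or KO mouse 3, and to 1 without WT mouse 3, where Ces2c was lost. Counts of members called in input and TE stayed at 0. Litter as a block moved calls over all genes from 44 to 236 in RPF and from 0 to 2 in input, left the members called at 2 in RPF, 0 in input and 0 in TE, and raised the related genes called from 0 to 4 (Ces3b, Ephx2, Abhd5 and Hspa5); a mouse left out gave 0 to 1 of these (Pon3, without KO mouse 1). Over all genes, RPF calls were 10 with the GC trend removed, 54 with that and the block, 23 with RPF columns alone, 66 by edgeR on whole reads and 0 to 226 with a mouse left out, the highest without KO mouse 1. Input calls were 1 by DESeq2, 30 without a count filter and 2 by limma, and 0 to 21 with a mouse left out; TE calls were at most 1. The log2 input change of Ces2a turned to -0.0049 by DESeq2 and -0.013 by limma. With a mouse left out, input changes ranged from -0.15 to 0.038 for Ces1c, -0.47 to 0.016 for Ces1d, -0.13 to 0.19 for Ces1f, -0.73 to 0.090 for Ces1g, -0.073 to 0.076 for Ces2a and -0.27 to 0.17 for Ces2e, and RPF differences from -0.38 to 0.022 for Ces1f, -0.082 to 0.0082 for Ces2a and -0.22 to 0.092 for Ces2g. TE differences ranged from -0.070 to 0.027 for Ces1d, -0.50 to 0.057 for Ces1g, -0.077 to 0.035 for Ces2a and -0.20 to 0.064 for Ces2e, and with the GC trend removed were 0.044 for Ces1d and 0.0034 for Ces2a. The RPF level of Ces1c was 1654 per kilobase of exon instead of 2312 per kilobase of coding sequence, and larger shifts were 479 to 246 for Ces1f, 160 to 99.5 for Ces2e and 1057 to 689 for Ces3a. The cause of these shifts was not tested. TE per mouse with a litter block was added after seeing the data.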
